A study of Mus musculus with 40 samples.

Results

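Gene expression in the cerebral cortex of 29-month-old wild-type mice was compared between a vitamin E deficient diet and a normal diet. Of the 40 arrays of the series, 8 belong to this comparison and were taken by their labels, with 4 arrays for the deficient diet and 4 for the normal diet. All mice were of the C57Bl/6 background and carried no engineered allele, so Ttpa, the gene of the alpha-tocopherol transfer protein, was intact in both groups. The normal diet contained 36 mg of alpha-tocopherol per kg, and the labels give no content for the deficient diet. Both diets were fed until the time of use, and the labels give neither the start of feeding nor the sex of the mice. The study describes 4 mice per group, so each array stands for 1 mouse. The 4 cerebellar arrays of the deficient diet and the 4 of the normal diet, from wild-type mice of the same age, are used only to show where the diet difference was not the same.

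Vitamin E is a family of lipid-soluble antioxidants that stop the chain reaction of lipid peroxidation in membranes, and alpha-tocopherol is the form that the body retains. The transfer protein loads alpha-tocopherol from the liver into the circulation, so that a deficient diet in wild-type mice lowers the supply while the transport remains. The brain holds on to alpha-tocopherol for a long time, and long deficiency is known for neurological signs.

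Each array is a 1-colour Agilent expression array, and a level is given as the log2 signal relative to the array's own 75th percentile, so that 0 is as bright as that percentile. On the 8 arrays this percentile lay between 452 and 517 intensity units, the share of probes well above background was 52% to 54.3%, and no spot was saturated. The markers of cortical excitatory neurons Slc17a7, Tbr1 and Neurod6 were well above background on all 8 arrays, and the cerebellar granule cell marker Gabra6 on none. Xist was above background on all 8 arrays and the Y-linked Ddx3y on none. The 4 arrays of the deficient diet shared 1 slide with a group of Ttpa-/- cortex, and the 4 arrays of the normal diet shared another slide with young cortex, so slide and diet cannot be told apart in any cortical value below.

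Few probes passed the test, in which the spread was estimated over all 40 arrays. A probe was called when the Benjamini-Hochberg adjusted p of limma was under 0.05 and the fold over 1.5. Of 28254 probes tested, 54 were up-regulated and 52 down-regulated on the deficient diet, or 0.191% and 0.184%. The 106 probes called are 0.375% of those tested, and 206 (0.729%) had an adjusted p under 0.05 at any fold. The upward share of 50.9% became 81.8% when the arrays were scaled to their median (9 up, 2 down), 61.2% after quantile normalization (52 up, 33 down) and 68.8% after normexp background correction (22 up, 10 down). When limma was fitted to the 8 arrays alone, 0 probes were called higher and 1 lower, and none of the 106 was among them. In that fit 296 probes were higher and 538 lower at an unadjusted p under 0.05 with a fold over 1.5.

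The levels of the deficient and normal arrays did not overlap for 2826 of the probes tested, which is 10%. Among the called probes they did not overlap for 38 of the 54 up-regulated and 34 of the 52 down-regulated. The called probes were dim, with a median level of -2.24 against -0.08 over all probes tested. Another probe of the same gene had been tested for 27 called genes, giving 35 pairs of probes. In 25 pairs both probes differed in the same direction, and in 2 the other probe was called as well.

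Most of the larger differences fell under the fold limit when 1 or another array was left out. Of 1262 probes with a mean difference over 1.5-fold (4.47% of those tested), 685 or 54.3% fell under 1.5-fold without deficient replicate 1. The removal of deficient replicates 2, 3 and 4 took 161, 113 and 92 probes under that limit, and the removal of normal replicates 1 to 4 took 177, 171, 313 and 90. Removal also brought other probes over 1.5-fold, namely 69, 167, 595 and 606 without deficient replicates 1 to 4 and 157, 242, 159 and 580 without normal replicates 1 to 4. Deficient replicates 2, 3 and 4 and normal replicates 2 and 4 thus held more probes under the limit than over it. For deficient replicate 2 the counts were close, at 167 and 161. In all, 856 probes, or 67.8%, fell under 1.5-fold without at least one of the 8 arrays, and 380 of them depended on exactly one. At a limit of 2-fold, 131 of 202 probes, or 64.9%, were lost without deficient replicate 1. The share lost without this array at 1.5-fold was 29.3% of 5301 probes without the filter on dim probes and 70% of 287 after normexp background correction.

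The direction of this dependence was uneven. Among 427 probes over 1.5-fold higher on the deficient diet, 206 were lost without deficient replicate 1, and among 835 lower (2.96% of those tested), 479 were. Deficient replicate 1 differed by more than 1 log2 unit from the median of the other 3 arrays of its group at 706 probes, 522 of them lower. Deficient replicate 3 did so at 605 probes, 501 of them higher. Normal replicate 4 did so at 457 probes, 407 of them lower. Deficient replicate 2 and normal replicate 1 were the arrays closest to their group, with 127 and 135 such probes.

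**Figure D1:**
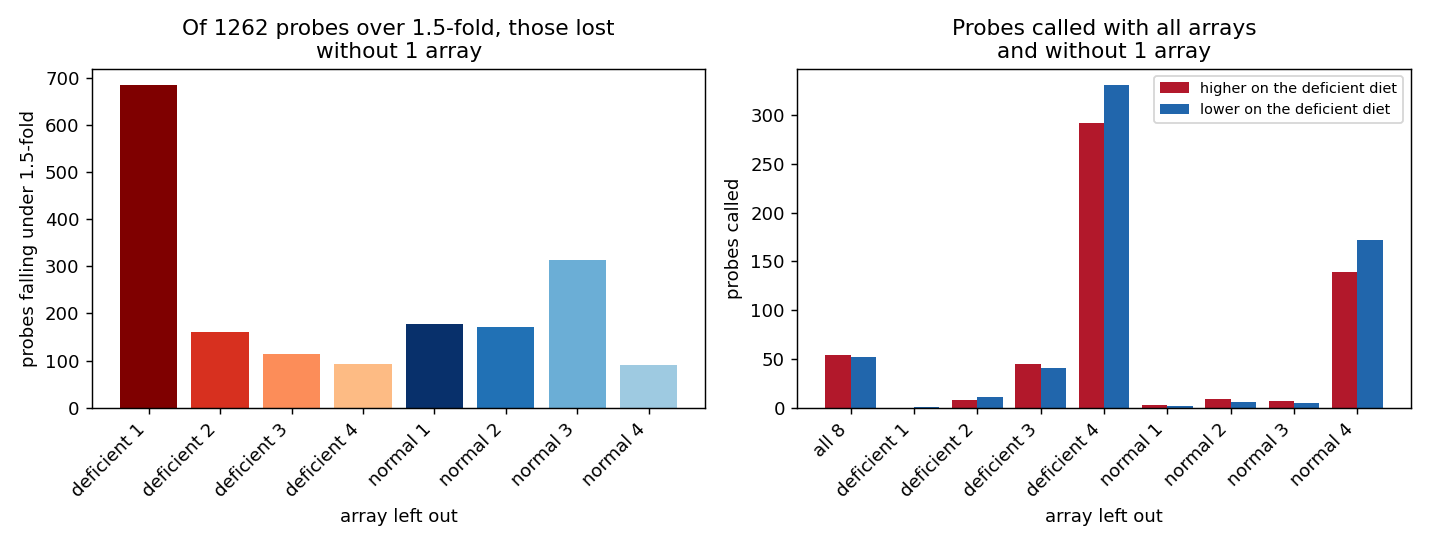
Left, number of probes that fall under 1.5-fold when the array on the x axis is left out, of 1262 over 1.5-fold with all 8 arrays. Right, number of probes called higher (red) and lower (blue) with all 8 arrays and with the array on the x axis left out. The bar of deficient replicate 1 reaches 685 on the left, and on the right the calls fall to 0 and 1 without that array and rise to 292 and 331 without deficient replicate 4.

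The number of calls moved in opposite senses with deficient replicates 1 and 4. Without deficient replicate 1, 0 probes were called higher and 1 lower by limma, although 206 and 199 had an unadjusted p under 0.05 with a fold over 1.5. Without deficient replicate 4, 292 were called higher and 331 lower, which held 53 of the 54 and 51 of the 52 called with all arrays. Without normal replicate 4, 139 were called higher and 172 lower. Without deficient replicate 2 the counts were 8 and 11, without normal replicate 1 they were 3 and 2, without normal replicate 2 they were 9 and 6, and without normal replicate 3 they were 7 and 5. Only the removal of deficient replicate 3, which left 45 and 41, moved neither count by more than 1.5 times. With replicate 4 of both groups left out, an alternative chosen after the data had been seen, 346 probes were called higher and 452 lower.

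Deficient replicate 4 lay between the groups at the called probes. On a scale where 0 is the mean of the other group and 100 the mean of the other 3 arrays of its own group, its median position was 41.5 at the up-regulated and 52.4 at the down-regulated probes. Deficient replicate 1 lay beyond its group, at 182 and 199. It was the highest deficient array at 43 of the 54 up-regulated probes and the lowest at 44 of the 52 down-regulated probes. Normal replicate 4 lay toward the deficient group, at 71 and 67.6. Over all probes tested, deficient replicate 4 correlated with normal replicate 4 at r = 0.9947, above its correlations of 0.987 to 0.9927 with the other deficient arrays. These correlations are across probes, which are not independent replicates.

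The clearest down-regulated gene was Lrrc43, which encodes a protein with leucine-rich repeats (chr5:123958154-123958213, plus strand, mm9). Its levels were -4.57, -5.67, -4.68 and -4.75 on the deficient arrays and -3.44, -3.13, -3.00 and -3.26 on the normal arrays. The groups did not overlap, and no deficient array was well above background. With dimmer deficient signals raised to the lowest signal counted as well above background on their array, the probe was lower by 2.49-fold. The fitted difference was -1.71 ± 0.22 (log2, SE), with an adjusted p of limma of 0.000291. The probe remained called without each of the 8 arrays in turn. It was not called after normexp background correction, where its difference was -0.35 (adjusted p of limma 0.185), nor in the 8 arrays alone (0.195), and it was called in 15 of 19 alternatives, with a range of 2.89e-10 to 0.233. A second probe, shifted by a few bases on the same transcript, gave -0.96 (adjusted p of limma 0.296), so the probes disagree in size.

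Other down-regulated genes had diverse known roles, and their calls depended more on single arrays. Those described next stayed over 1.5-fold without any 1 array, the smallest being 4930402H24Rik at -0.64 without deficient replicate 1. They were called in only 2 to 4 of the 8 fits that left out 1 array. Tnfrsf25, the death receptor that binds TL1A, stood at -2.49, -1.12, -0.96 and -1.49 on the deficient arrays and 0.39, 0.19, 0.28 and -0.29 on the normal arrays. The groups did not overlap, and deficient replicate 1 was the lowest. The difference was -1.65 ± 0.38 (SE; adjusted p of limma 0.0356). Mical2, a flavin monooxygenase that acts on actin filaments, differed by -1.51, while a second tested probe of the gene differed by -0.02. Trmt10a, a tRNA methyltransferase, differed by -1.34, with -0.32 at another probe, and normal replicates 3 and 4 stood at -3.35 and -3.30, close to the deficient range of -4.43 to -3.54. The other 8 named down-regulated genes, with differences from -1.13 to -0.83, were Dnase1l2, Nat8f5, Fam89a, Esd, 4930402H24Rik, Lekr1, Alkal2 and Hras. Esd encodes an esterase that hydrolyses S-formylglutathione, Alkal2 a ligand of the receptor ALK, and Hras a small GTPase. Deficient replicate 1 was the lowest deficient array for each of these 8 genes. Other tested probes did not bear out several of these differences, with 0.07 and 0.06 for Esd, 0.00 for Hras, 0.39 for Lekr1 and -0.46 for 4930402H24Rik, none of them called.

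Bdnf, the neurotrophin of activity-dependent plasticity, was also down-regulated (chr2:109566961-109567020, plus strand, mm9). It stood at 0.39, 0.74, 0.96 and 0.66 on the deficient arrays and 1.28, 1.53, 1.39 and 1.14 on the normal arrays. The groups did not overlap, and the difference was -0.65 (adjusted p of limma 0.015). Without each array in turn the difference lay between -0.74 and -0.55, and the call held in 4 of 8 cases. It was lost without deficient replicate 1 and without normal replicates 1, 2 and 3. Inhba, a subunit of activin, and Pcsk1, a convertase that cleaves prohormones, were called lower as well and were chosen after their values had been seen. Inhba stood at -1.22, -1.02, -0.80 and -0.84 on the deficient arrays and -0.09, 0.28, 0.22 and -0.85 on the normal arrays. Normal replicate 4 thus lay within the deficient range.

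Among the up-regulated genes, Gm8149, a predicted gene, had the largest difference of those with a symbol. Its levels were -1.29, -2.99, -3.61 and -3.89 on the deficient arrays and -4.52, -4.64, -5.63 and -4.91 on the normal arrays. The groups did not overlap, and no normal array was well above background. With dimmer normal signals raised to the lowest signal counted as well above background on their array, the probe was higher by 2.57-fold. The fitted difference was 1.98 ± 0.43 (SE), with an adjusted p of limma of 0.0262. Over 19 alternatives the difference ranged from 0.78 to 2.30. A second probe of Gm8149, well above background on all 8 arrays, differed by 0.17 (adjusted p of limma 0.684). Deficient replicate 1 stood far above the other 3 deficient arrays. Without it the difference was 1.43, and over the removal of each array it was called 3 of 8 times.

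Cpne5, a calcium-dependent phospholipid-binding protein, stood at -0.72, -1.25, -1.48 and -1.76 on the deficient arrays and -3.04, -2.67, -2.94 and -2.15 on the normal arrays. The difference was 1.40 (adjusted p of limma 0.0264), while 2 other probes of Cpne5 differed by 0.33 and 0.41 and were not called. Glod5, a glyoxalase domain protein, differed by 1.25, Clic3, of the chloride intracellular channel family, by 1.07, and Trappc11, a subunit of a vesicle tethering complex, by 0.94. At 1 probe Shprh, a helicase and ubiquitin ligase of DNA damage tolerance, was higher by 1.50-fold with normal signals raised as for Gm8149. The difference of this probe ranged from 0.30 to 1.01 over 19 alternatives. Another tested probe differed by -0.01 for Trappc11 and by 0.02 for Shprh, and neither was called. The remaining named genes, Gm3448, Tbx2, Chad, Mamstr and Ino80c, differed by 0.70 to 0.88. Tbx2 is a transcription factor, Chad a cartilage matrix protein and Ino80c a subunit of a chromatin remodeller. Chad and Shprh did not follow deficient replicate 1, which was the lowest of the 4 deficient arrays in both. Chad stood at -3.59, -3.53, -3.42 and -3.30 on the deficient arrays and between -4.31 and -4.16 on the normal arrays. Only 1 normal array was well above background for Chad, and 2 were for Tbx2. Over 19 alternatives the Chad difference ranged from 0.37 to 0.86, with 7 calls.

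**Figure D2:**
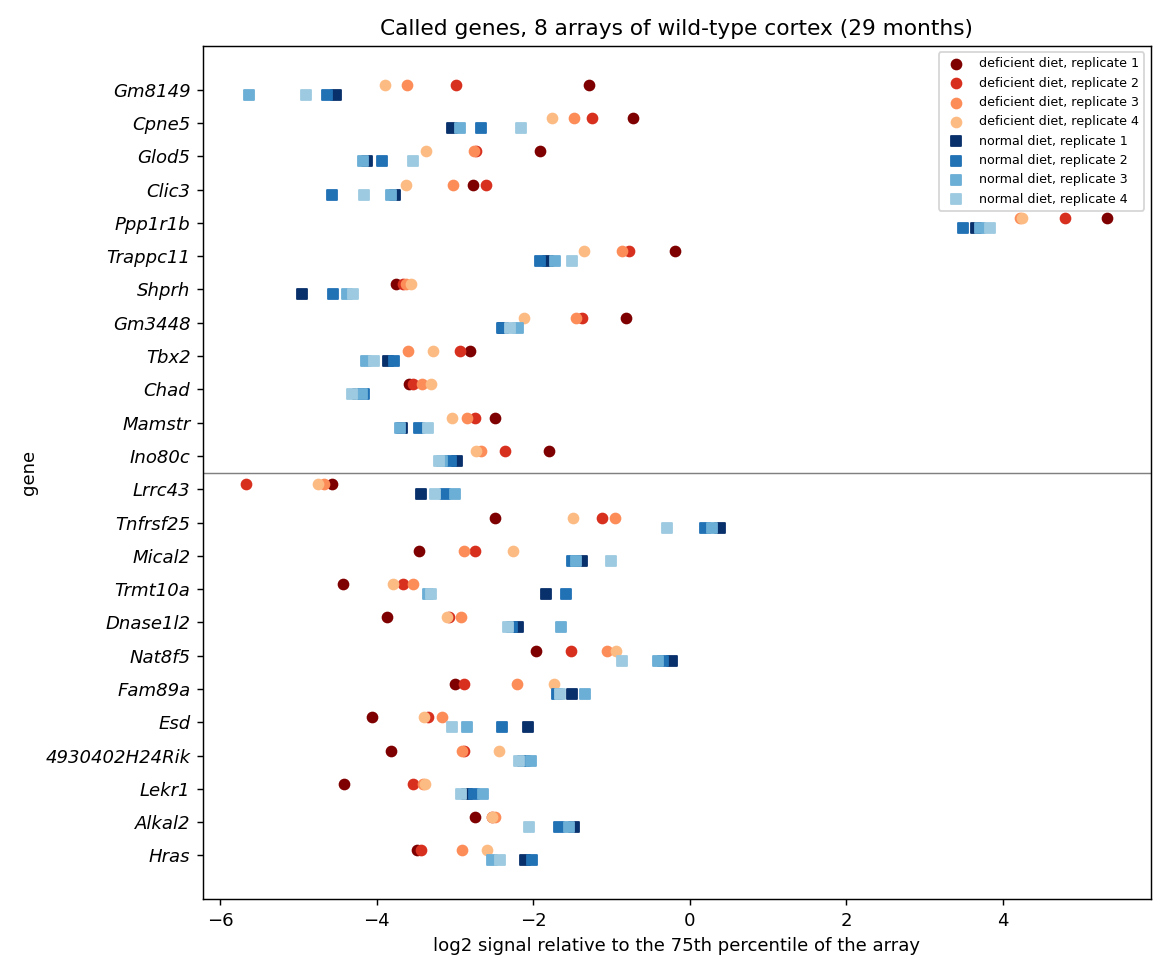
Log2 signal relative to the array's 75th percentile (x axis) of the 12 up-regulated genes (above the line) and 12 down-regulated genes (below it) with the largest differences whose groups did not overlap. Circles are the 4 deficient arrays, squares the 4 normal arrays, each replicate in its own shade. Deficient replicate 1 is the farthest circle from the normal squares for most genes, as for Gm8149 at -1.29, and deficient replicate 4 is often the nearest, as for Gm3448 at -2.12 beside a normal range of -2.40 to -2.19.

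At 31 of the 54 up-regulated probes, deficient replicate 4 was the lowest deficient array and normal replicate 4 the highest normal array, a count made after the values had been seen. Slc2a4, the insulin-responsive glucose transporter, is an example chosen after its values had been seen. It stood at 1.48, 0.82, 0.56 and -0.55 on the deficient arrays and -0.76, -0.73, -0.75 and -0.28 on the normal arrays. The groups overlapped through the replicates numbered 4, and the difference was 1.21 ± 0.27 (SE; adjusted p of limma 0.031). The probe with the largest rise of all, also chosen after its values had been seen and named in the file only as ENSMUST00000065124, had levels of 0.20, -0.62, -0.75 and -2.55 on the deficient arrays and of -3.08, -2.87, -3.12 and -2.63 on the normal arrays. Its difference was 2.00 (adjusted p of limma 0.00636).

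An intergenic transcript on chromosome 13, given in the file as chr13:70745306-70837331 on the minus strand of mm9, had the most called probes of any intergenic transcript. Of its 7 probes, 4 were up-regulated, and these 4 lay within a stretch that also held 1 probe not called. The sequences of the 5 probes are shown because they are distinct, neighbouring targets and not repeats of one probe. They are given 5′ to 3′ from the array files, with the probe's position.

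chr13:70760089-70760148: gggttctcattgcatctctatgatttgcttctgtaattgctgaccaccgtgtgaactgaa
chr13:70760029-70760088: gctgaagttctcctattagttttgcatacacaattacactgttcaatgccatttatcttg
chr13:70759947-70760006: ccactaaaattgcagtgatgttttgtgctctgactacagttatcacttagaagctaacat
chr13:70759887-70759946: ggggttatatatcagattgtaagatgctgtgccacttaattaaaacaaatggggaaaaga
chr13:70759818-70759877: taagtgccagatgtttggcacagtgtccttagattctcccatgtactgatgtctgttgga

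In the order printed, the differences were 1.01, 1.07, 1.75, 0.93 and 1.25, and the probe with 0.93 was not called (adjusted p of limma 0.0519). The probe with 1.75 stood at -2.06, -2.79, -2.84 and -3.60 on the deficient arrays and -4.53, -4.30, -4.86 and -4.63 on the normal arrays. These groups did not overlap, and no normal array was well above background. The probe at chr13:70759818-70759877 stood at -0.86, -1.45, -1.65 and -3.06 on the deficient arrays and -2.83, -3.10, -2.95 and -3.14 on the normal arrays. Deficient replicate 4 was the lowest deficient array at each of the 5 probes and lay within the normal range at 3 of them. The 2 outer probes of the transcript differed by 0.08 and -0.17 and were not called. In the cerebellum the 5 probes differed by 0.71 to 1.24 in the same direction.

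**Figure D3:**
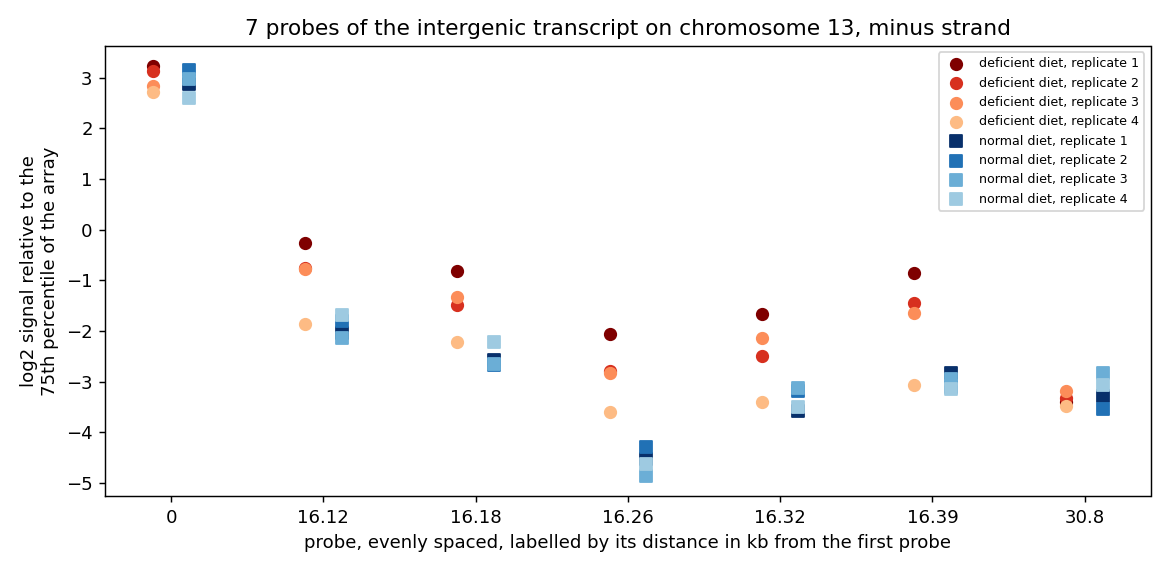
Log2 signal relative to the array's 75th percentile (y axis) of the 7 probes of the intergenic transcript on chromosome 13, ordered by distance in kb from the first probe. Circles are deficient arrays and squares normal arrays. At the 5 inner probes deficient replicates 1 to 3 lie above the normal arrays and deficient replicate 4 falls towards or among them, and the 2 outer probes, with differences of 0.08 and -0.17, show mixed groups.

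Intergenic transcripts as a class held 17 of the called probes, of 4277 such probes tested, or 0.397%, near the share of all probes. A second transcript, chr6:42659063-42660071 on the minus strand, had 2 of its 3 probes down-regulated, by -0.98 and -0.95, and the third differed by -0.83. The 2 called probes are shown because they adjoin each other.

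chr6:42659135-42659194: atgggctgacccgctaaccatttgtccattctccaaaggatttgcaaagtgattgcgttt
chr6:42659075-42659134: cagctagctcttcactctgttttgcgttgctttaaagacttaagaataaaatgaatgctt

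The first of them stood at -3.54, -2.74, -2.40 and -2.16 on the deficient arrays and -1.65, -1.51, -1.75 and -2.03 on the normal arrays. Deficient replicate 1 was the lowest and deficient replicate 4 the nearest to the normal arrays, although the groups did not overlap.

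Markers of the striatum, the region under the cortex, had positive differences. All 13 tested of 14 listed genes had a positive difference, with a median of 0.66 against 0.006 over all probes tested, and 9 did not overlap between groups against 4.71% of all probes. Only Ppp1r1b and Gpr6 were called, 2 of 13 against 0.191% of all probes. Ppp1r1b, which encodes the dopamine-regulated phosphatase inhibitor DARPP-32, stood at 5.34, 4.8, 4.22 and 4.25 on the deficient arrays and 3.66, 3.49, 3.71 and 3.84 on the normal arrays. The groups did not overlap, and the difference was 0.98 ± 0.23 (SE; adjusted p of limma 0.0389). Gpr6, an orphan receptor of striatal projection neurons, differed by 0.66 (adjusted p of limma 0.0264).

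The other striatal markers with large differences were not called, namely Adora2a with 1.38, Drd2 with 1.04 and Penk with 0.91. Deficient replicate 1 was the highest of the 8 arrays for 12 of the 13 genes. The summed linear level of the list was 162, 114, 81.2 and 80.2 on the deficient arrays, all above the normal range of 54.1 to 65.9. The median stayed between 0.57 and 0.72 without each array in turn. In these tissue samples, more cells of a type and more RNA per cell cannot be told apart. The part of striatal tissue in the other called differences was not tested. The cortical excitatory list, by contrast, had a median of -0.05 over 18 tested genes, with none called.

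Blood genes also had positive differences without a call. All 9 tested genes of the list were positive, with a median of 1.09, and 2 did not overlap between groups against 4.71% of all probes. Without deficient replicate 4 the median was 0.71. Hba-a1, a haemoglobin chain, stood at 3.37, 2.80, 2.71 and 4.56 on the deficient arrays and 2.43, 1.55, 2.79 and 2.24 on the normal arrays. The groups overlapped, and the difference of 1.11 was not called (adjusted p of limma 0.519). Deficient replicate 4 was the highest of the 8 arrays for 6 of the 9 genes, and the list's summed level was 125 on this array against 40.9 to 59.2 on the other deficient arrays and 19.6 to 42.9 on the normal arrays. The haemoglobin genes are near-identical copies, so their probes may share signal. S100a9, a calcium-binding protein of neutrophils, was highest on deficient replicate 2, at 2.46 against 0.84, 1.32 and -0.48 on the other deficient arrays and 0.00 to 0.29 on the normal arrays. Its difference of 0.84 was 0.37 without that array.

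Genes of the choroid plexus, which makes the cerebrospinal fluid, were low on normal replicate 4. Ttr, its main secreted carrier protein, stood at 6.49, 5.56, 7.07 and 1.72 on the normal arrays and 6.77, 6.46, 5.15 and 6.01 on the deficient arrays. Normal replicate 4 was the lowest array for all 13 genes of the list, and its summed level was 5.27 against 55 to 155 on the other 3 normal arrays and 40.8 to 122 on the deficient arrays. The median difference of 0.32 ranged from -0.57 without normal replicate 4 to 0.88 without normal replicate 3, and no member was called. Ttr differed by 0.89 with all arrays and by -0.27 without normal replicate 4. Trpm3, a cation channel, and Sult1c2, a sulfotransferase, differed by 1.36 and 1.0 with all arrays and by 0.53 and -0.14 without normal replicate 4, where they stood at -6.59 and -6.49.

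**Figure D4:**
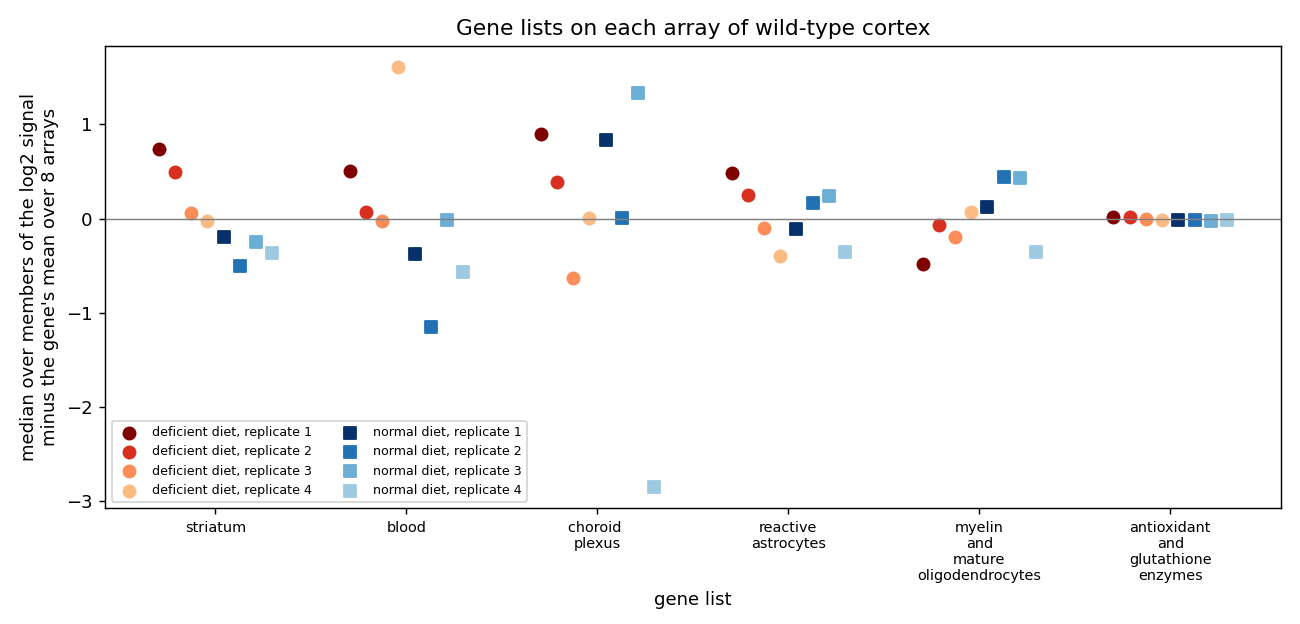
Each point is 1 array's median, over the tested genes of a list, of the log2 signal minus that gene's mean over the 8 arrays (y axis), for 6 gene lists (x axis). Circles are deficient and squares normal arrays. The striatal points of the deficient arrays, from -0.02 to 0.74, lie above the normal points, blood is highest on deficient replicate 4 at 1.61, choroid plexus is lowest on normal replicate 4 at -2.85, and the antioxidant list lies near 0 on all arrays.

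Among reactive astrocyte genes, deficient replicate 1 was often the highest array. Lcn2, an iron-siderophore binding protein that rises in inflamed tissue, stood at 3.05, 1.53, 0.59 and -0.77 on the deficient arrays and -1.02, -1.09, -0.83 and -0.17 on the normal arrays. The difference was 1.88 (adjusted p of limma 0.131) and deficient replicate 4 lay within the normal range. Fkbp5, a glucocorticoid-induced cochaperone, had 4.07, 3.39, 3.06 and 1.90 on the deficient arrays against 2.01 to 2.56 on the normal arrays. Gbp2, an interferon-induced GTPase, had 2.31, 0.27, -0.36 and -0.82 against -1.60 to -0.28. These 2 genes were chosen after their values had been seen, and neither was called. The 15 tested genes of the list had a median of 0.02, deficient replicate 1 being the highest of all arrays for 8 of them. Gfap, the astrocyte filament protein, differed by 0.02 and lay between -0.15 and 0.14 without each array. For the interferon and class I genes, deficient replicate 1 was the highest array for 19 of 27, the median difference was 0.05 and none was called. Gbp5, a further interferon-induced GTPase, differed by 1.21 with all arrays and 0.57 without deficient replicate 1.

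Myelin genes had mostly negative differences. Of 14 tested, 13 were lower on the deficient diet, with a median of -0.33, and none was called. The summed linear level of the list was 226, 279, 277 and 293 on the deficient arrays and 317, 392, 397 and 233 on the normal arrays. Normal replicate 4 lay within the deficient range, so the groups overlapped. Of the oligodendrocyte precursor list 9 of 10 tested genes were lower, with a median of -0.22, and of the homeostatic microglial list 10 of 12, with a median of -0.18. Without each array in turn these medians ranged from -0.51 to -0.21 for myelin, from -0.34 to -0.12 for precursors and from -0.30 to -0.08 for microglia. The myelin and precursor medians were nearest 0 without deficient replicate 1 or normal replicate 2 and farthest without normal replicate 4. The microglial median was nearest 0 without deficient replicate 1 and farthest without deficient replicate 4. The hippocampal list had 5 tested genes, all lower, with a median of -0.56. None of these lists had a called member.

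The neuronal immediate early genes, which are induced by synaptic activity, had 15 of 21 tested members lower, with a median of -0.18. Bdnf alone was called, 1 of 21 against 0.184% of all probes called lower. Of the list, 4 genes were lower without overlap between groups against 5.29% of all probes, and 1 was higher against 4.71%. Egr1, an activity-induced transcription factor, stood at 4.54, 4.64, 4.89 and 4.60 on the deficient arrays and 5.25, 5.60, 5.22 and 4.79 on the normal arrays. The difference of -0.55 was not called (adjusted p of limma 0.155), and normal replicate 4 lay within the deficient range. Of the unfolded protein and amino acid stress genes, 19 of 23 were lower, by a median of -0.16, and 8 did not overlap between groups against 5.29% of all probes. None was called, and Atf4, the main transcription factor of the list, differed by -0.32 (adjusted p of limma 0.088). The cholesterol synthesis and uptake list had 21 of 24 lower, with a median of -0.13 and no call.

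The genes nearest to vitamin E itself had small median differences. Of 43 antioxidant and glutathione enzymes tested, 20 were higher and 23 lower, with a median of -0.01, a range of -0.20 to 0.42 and no call. Without overlap between groups, 4 were higher against 4.71% of all probes and 1 lower against 5.29%. The summed linear level was 1180, 1070, 1020 and 891 on the deficient arrays and 926 to 973 on the normal arrays. Gpx4, which reduces lipid hydroperoxides in membranes, differed by 0.11, and Hmox1, which degrades haem, by -0.01, with 0.08 under median scaling. The 13 tested genes of vitamin E handling had a median of -0.02 and no call. Sec14l2, a tocopherol-associated protein, stood at 1.90, 1.86, 1.67 and 1.83 on the deficient arrays and 1.77, 1.80, 1.76 and 1.95 on the normal arrays. These groups overlapped throughout. Ttpa was well above background on 1 deficient and 0 normal arrays and was not tested. The 72 tested subunits of the respiratory chain had a median of 0.01, within -0.17 to 0.15. The 16 tested genes of amyloid precursor processing had a median of 0.01 and no call.

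Pla2g3, a secreted phospholipase A2 named by the study, depended on replicate 4 of both groups (chr11:3394109-3394168, plus strand, mm9). It stood at 0.47, 0.08, -0.07 and -1.86 on the deficient arrays and -1.57, -1.61, -1.59 and -0.80 on the normal arrays. Deficient replicate 4 was lower than every normal array, and normal replicate 4 stood above the other normal arrays. The difference was 1.05 ± 0.40 (SE) and was not called (adjusted p of limma 0.174). The exact two-sided permutation test over the 70 splits of the 8 arrays gave p = 0.143. Without deficient replicate 4 the difference was 1.55 and was called (adjusted p of limma 0.0128), and without replicate 4 of both groups it was 1.75 (0.00705). The range over 19 alternatives was 1.74e-05 to 0.641, with a difference of 0.78 to 1.75 and 3 calls. A second probe of Pla2g3 gave 0.91 but was too dim to be tested. Of the 24 tested genes of phospholipase A2 and eicosanoid enzymes the median was 0.03, and none was called.

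Of the other genes that the study names, Ide, the insulin-degrading enzyme, stood at 0.62, 0.54, 0.76 and 0.49 on the deficient arrays and 1.63, 1.58, 0.91 and 0.60 on the normal arrays. Normal replicates 1 and 2 carried the difference of -0.58 (adjusted p of limma 0.149), and normal replicate 4 lay within the deficient range. Gm3448 had 2 probes, of which the brighter differed by 1.08 (adjusted p of limma 0.0611) and the other by 0.88 (0.0394). Deficient replicate 4 was the lowest deficient array at both. Car8, a carbonic anhydrase-related protein, had 2 tested probes with -0.43 and -1.27, neither called. Tsga10 differed by -0.56 (adjusted p of limma 0.175) and Tcp10c, whose current symbol is Tcp10b, by 0.15. Fcgbp and Mybpc2 were too dim to be tested.

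Some differences rested on a single mouse at a single gene. Nf2, the merlin tumour suppressor, stood at 0.35 on deficient replicate 3 and at -3.36 to -2.92 on the other 7 arrays. Its difference of 0.89 became 0.02 without that array. Rnaset2a, a ribonuclease, stood at -0.34 on normal replicate 3 and at -4.10 to -3.39 on the other 7 arrays. Its difference of -0.87 became -0.03. Mnd1, a meiotic recombination protein, stood at -1.30 on normal replicate 2, and its difference of -1.0 became -0.47. Eps8, a regulator of actin, stood at -1.56 on normal replicate 1, and its difference of -0.86 became -0.35. None of these 4 genes was called with all arrays.

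In the cerebellum, whose diet groups shared one slide, 445 of 30990 probes were called (1.44%). Of the 106 probes called in the cortex, 100 could be tested in the cerebellum, and 89 of them differed in the same direction, against 53.9% of the 27481 probes tested in both. The probes called in both regions in the same direction numbered 18, which is 17% of the cortical and 4.04% of the cerebellar calls, and none was called in opposite directions. The labels do not say whether the cerebellum and the cortex came from the same mice, so these shares are a description.

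The diet difference was not the same in cortex and cerebellum at 20 of 31763 probes (0.0630%). The cortical difference was higher at 8 (0.0252%) and lower at 12 (0.0378%). Since slide and diet cannot be told apart in the cortex, they cannot be told apart in these 20 values either. Of these, 18 were bright enough to be tested in both regions, and the other 2 cannot show whether the regions differ. Shmt1, an enzyme of serine and folate metabolism, was up-regulated by 0.95 in the cortex and differed by -0.54 in the cerebellum. At this probe no normal cortical array was well above background, and with those signals raised as for Gm8149 the rise was 1.39-fold. The cortical difference ranged from 0.29 to 1.14 over 19 alternatives. A second Shmt1 probe differed by 0.22 in the cortex (adjusted p of limma 0.617). Vipr1, a receptor for vasoactive intestinal peptide, differed by -0.32 in the cortex and was up-regulated by 0.86 in the cerebellum (adjusted p of limma 0.00198). Another tested Vipr1 probe differed by -0.05 in the cortex (adjusted p of limma 0.907). Slc4a4, a sodium bicarbonate cotransporter, differed by -0.69 in the cortex and was up-regulated by 0.59 in the cerebellum at one of its probes. Other tested Slc4a4 probes differed by -0.10 and -0.15 in the cortex and were not called there. The striatal list, with a median of 0.66 in the cortex, had a median of -0.33 in the cerebellum, and the blood list, with 1.09 in the cortex, had -0.24. The members of both lists were filtered by cortical signal alone, and the striatal gene Drd1, for example, was too dim to be tested in the cerebellum. A difference between the regions was not tested for either list. The count of 20 probes fell to between 0 and 12 without any one of 12 of the 16 arrays.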

How the data were processed

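Total RNA of wild-type mouse cortex was hybridised to Agilent 1-colour arrays. The authors deposited scanner output, in which the intensity per spot is background-subtracted by Feature Extraction (version 10.7.3.1 per the file headers, 10.1.1.1 per the labels), and a table of log2 values, which the authors normalised globally and which matched the values used here within a median of 0.00101. Control spots and outlier-flagged spots were left out, spots of one probe were averaged, and log2 intensity was scaled to the 75th percentile of each array. The tested probes were those that every one of the 4 arrays of either compared group showed well above background. Differences were tested with limma 3.58.1 in R 4.3.3, fitted to all 40 arrays in 10 groups, with Benjamini-Hochberg adjustment. A call required an adjusted p under 0.05 and a fold over 1.5. The fit was tested on simulated data with known changes. The simulated noise was independent between probes, so this check does not cover deviations shared across a whole array. Symbols were updated through RefSeq where the accession or name matched (28651 of 55681 probes), and positions are those of the array files (mm9). A gene in a list is represented by its brightest probe.

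Named genes were the 12 largest rises and falls among called, non-overlapping genes, up to 3 genes per array whose difference rested on it, the first members of each list with those called, and genes named by the study. The comparison, lists and rules were chosen with earlier results of these data known. Replicates of the same number were not treated as pairs, since the labels give no pairing of the mice. Across probes, their deviations from the group means correlated by -0.019, 0.083, 0.419 and 0.193. Between replicates of different numbers these correlations were -0.347 to 0.203. Such values cannot decide a pairing, since probes are not independent. The number of arrays, 4 mice per group, limits the precision. Where limma was fitted to all 40 arrays, its p-values rest on a spread pooled over the 10 groups. They do not measure the spread between the mice of the compared groups alone. The exact permutation test cannot give a p below 0.0286. Alternatives covered scaling, background correction, the authors' table, the dim-probe filter, replicate blocks, array weights, the arrays in the fit, the methods' t-test and the removal of each array. Some genes of the lists are not reported here.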

Additional observations from a re-analysis of the deposited data

Results flagged for a closer look

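In 11 of 122 sets of 4 arrays examined for the named genes, 1 array stood apart, its gap to the nearest array taking more of the group's range than Dixon's 95% critical value for 4 samples. Chance gives about 1 in 20, but no excess can be read from the count, since some of these genes were chosen because 1 array carried their difference. On the deficient diet, replicate 1 lay below the others for Alkal2 (share of the range 0.840), Cd209a (0.851) and Lekr1 (0.846). The 4 Alkal2 levels spanned only -2.74 to -2.49, and the difference was -0.83 without this array against -0.89 with all arrays. Replicate 2 lay below the others for Lrrc43 (0.836), replicate 3 above for Nf2 (0.934) and replicate 4 below for Shmt1 (0.911). On the normal diet, replicate 1 lay above the others for Eps8 (0.903), replicate 2 above for Mnd1 (0.954) and Tnfsf9 (0.883), and replicate 4 above for Pla2g3 (0.951) and below for Mybpc2 (0.881), which was too dim to be tested.

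In the cortex slide and diet cannot be told apart. The diet difference there minus that in the cerebellum passed the limma test for 4 named genes measured in both regions. It was 1.48 for Shmt1 (adjusted p of limma 0.0406) and 0.96 for Lmo7 (0.0463). It was -1.28 for Slc4a4 (0.0406) and -1.17 for Vipr1 (0.0154). The fit also gave 1.90 for Kcnv1 and -1.82 for Lrrc43, whose cerebellar signals were too dim to be tested, so these values cannot show whether the regions differ. For Kcnv1, which differed by 0.03 in the cortex, nearly the whole value was the difference of -1.87 between the dim cerebellar signals.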

How the results depend on the processing

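Counts of calls moved with most choices, whereas no called probe changed its direction under any choice that kept probes as the unit. With 54 higher and 52 lower as reported, median scaling gave 9 and 2, normexp 22 and 10, no filter on dim probes 17 and 12, quantile normalization 52 and 33, array weights 616 and 904, the 8 arrays alone 0 and 1, the 20 cortex arrays alone 0 and 1, unadjusted limma p 316 and 556, fold alone 427 and 835, and genes in place of probes 18 and 23. The methods' t-test gave 195 and 338 unadjusted and 0 and 0 adjusted, with replicate 4 of both groups left out 346 and 452 were called, and a replicate block, whose numbers did not pair the mice, gave 73 and 82. Removing single arrays gave 0 to 292 and 1 to 331. The 20 probes that differed between regions became 0 with median scaling, 1 without the filter, 1128 with array weights, 72 in the 16 arrays alone and 0 to 31 without single arrays; the block left 20. At 0 under median scaling, 3587 had an unadjusted limma p under 0.05 with a fold over 1.5. The 856 differences that fell under the limit without at least 1 of the 8 arrays became 226 of 287 with normexp, 3984 without the filter and 162 at 2-fold. Signs turned for Kcnv1 (-0.0306 with array weights, -0.0315 to 0.13 without single arrays), 5430431A17Rik (-1.91 to 0.10) and Sult1c2 (-0.14 to 1.57), and for list genes described above that were not called. Without single arrays these were Gfap (-0.15 to 0.14), Hmox1 (-0.11 to 0.059), Sec14l2 (-0.0296 to 0.0459) and Ttr (-0.27 to 1.51). With median scaling, normexp and array weights Hmox1 was 0.0817, 0.0151 and 0.0901 and Sec14l2 0.0892, 0.0143 and 0.0492, and quantile normalization gave 0.0014 for Sec14l2. Without replicate 4 of both groups Gfap was -0.041, Sec14l2 0.0358 and Ttr -0.2447. Under median scaling the median difference over all probes tested was 0.097, against 0.006 as reported. The cause of these changes was not tested. A slide block could not be fitted, since each group lay on 1 slide. Differences near background have the least support, since called probes were dim.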
